A study of Rattus norvegicus with 2 samples.

Results

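The tumor necrosis factor (TNF) superfamily, its receptors and the TRAF adaptors were examined in spleen RNA of cocaine-administered rats and control rats, with 1 sample and 1 array for each. Genes were taken by their symbols: TNF, the lymphotoxins (Lta and Ltb), the lymphotoxin receptor Ltbr, Fas and its ligand, every gene named Tnfsf or Tnfrsf with a number, and Traf followed by a digit. In all, 33 genes of the 15037 with a single symbol on the array met this rule (12 ligands, 16 receptors and 5 TRAFs), and each was read by a single transcript cluster (the probes that target its transcripts). The rats were male, Sprague-Dawley and 6 weeks old at the start. For the cocaine sample, cocaine was injected intraperitoneally at 50 mg/kg daily for 7 days. For the control sample, saline was given according to the study's methods, while its title says that it was not stimulated and its treatment label repeats the cocaine injections of the other sample. The title was followed here. Total spleen RNA collected 24 h after the last injection was hybridized to Clariom S arrays. Whether a sample held RNA of 1 rat or of several is not stated in the labels or methods. Each value is a log2 signal as deposited. A difference is the cocaine signal minus the control signal, so that 1 stands for a signal 2-fold higher after cocaine and -1 for one 2-fold lower. There was 1 array per group, so no value has an error and no difference could be tested.

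TNF family ligands are made mostly as membrane proteins, and they bind receptors that act as trimers. Receptors with a death domain, such as Fas and Tnfrsf1a, can start cell death, whereas most of the others recruit TRAFs, which are adaptors and often ubiquitin ligases that lead to NF-kB and MAP kinases. In the spleen, lymphotoxin made by B cells maintains the stromal cells and chemokines of the white pulp, and the ligands BAFF and APRIL sustain B cells and plasma cells through the receptors BAFF-R, TACI and BCMA.

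The array's own background probes (23 features) gave signals up to 7.76 on both arrays. Of the 33 genes, 12 had signals at or above this level on both arrays. These were Ltb, Tnfsf10, Tnfsf13, Tnfrsf1a, Tnfrsf1b, Tnfrsf14, Tnfrsf18, Tnfrsf25, Traf1, Traf2, Traf6 and Traf7. The other 21 genes, TNF itself among them, had both signals within the background range. Their differences are given below but cannot be told from background, and a low signal says nothing of whether the gene is expressed. Probes of different genes bind with different strength, so signals are compared between the arrays and not between genes.

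**Figure D1:**
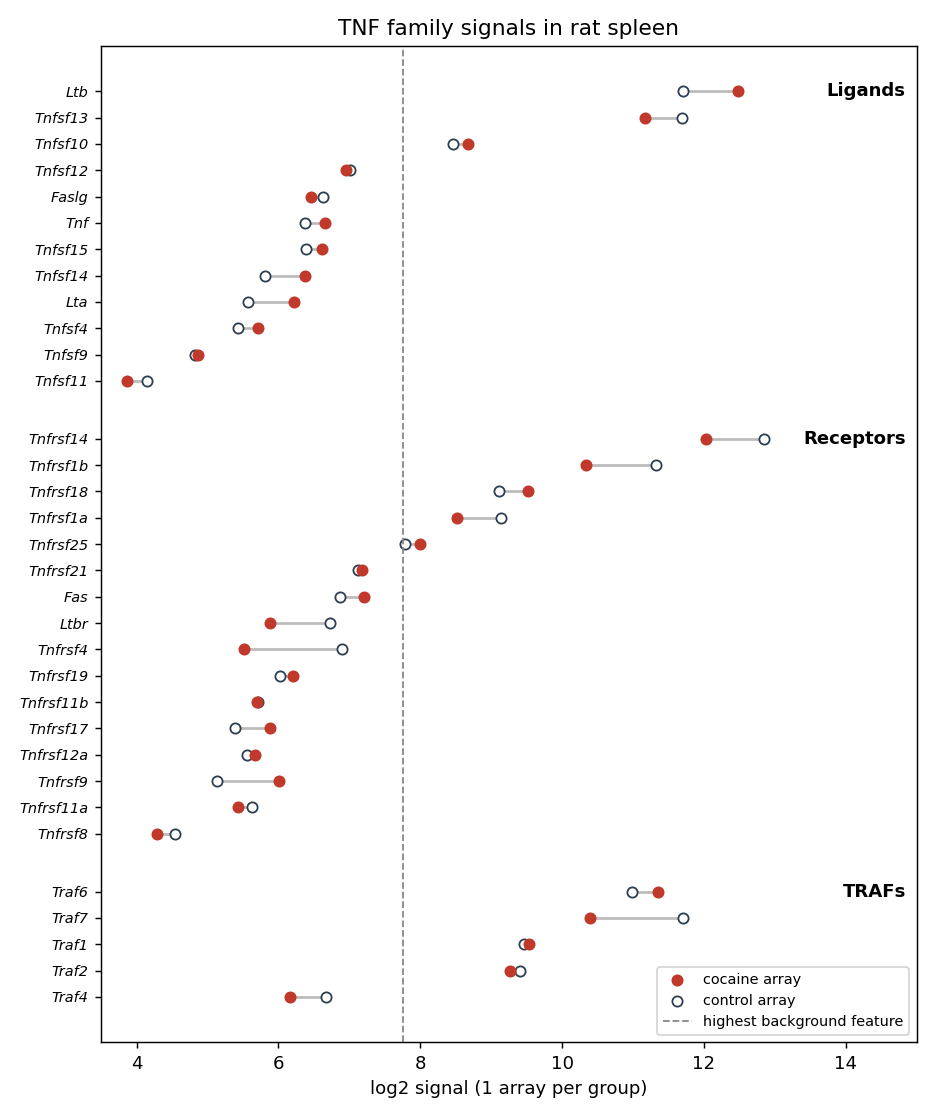
Log2 signals (horizontal axis) of the 33 genes on the cocaine array (filled circles) and the control array (open circles), 1 array each, grouped as ligands, receptors and TRAFs, with the highest background feature as a dashed line. The 12 genes with signals beyond the line include 3 ligands, 5 receptors and 4 TRAFs, and the widest gap among them is that of Traf7 (10.39 after cocaine, against 11.71 in the control spleen).

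Few of the 33 genes passed 2-fold between the spleens. For the 21 genes within background, a small difference cannot be read as no change. None of the 33 genes was at least 2-fold higher on the cocaine array, against 2.28% of all genes, and 2 were at least 2-fold lower (6.06%), against 4.97% of all genes. The 2 lower genes were Traf7 and Tnfrsf4. Over all genes 343 were higher and 748 lower past 2-fold, a split that became 509 and 657 with centring on the 75th percentile. The median difference was 0.06 over the family and 0.04 over all genes. In the family 18 genes were above 0 and 15 below (54.5% above, against 53.2% of all genes). Of the 12 genes with signals beyond background, Traf7 alone was at least 2-fold lower (8.33%) and none was 2-fold higher, while among the 7196 genes with at least 1 of their 2 signals beyond background 8.87% were lower and 2.65% were higher. At 1.5-fold, 4 of the 12 were lower (33.3%, against 16.8% of those 7196 genes) and 1 was higher (8.33%, against 12.0%). The 4 were Traf7, Tnfrsf1b, Tnfrsf14 and Tnfrsf1a, and the other was Ltb. Over all 33 genes, 6 were lower and 3 higher at 1.5-fold (18.2% and 9.09%), against 11.7% and 11.6% of all genes. With so few genes these shares only describe the 2 arrays.

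**Figure D2:**
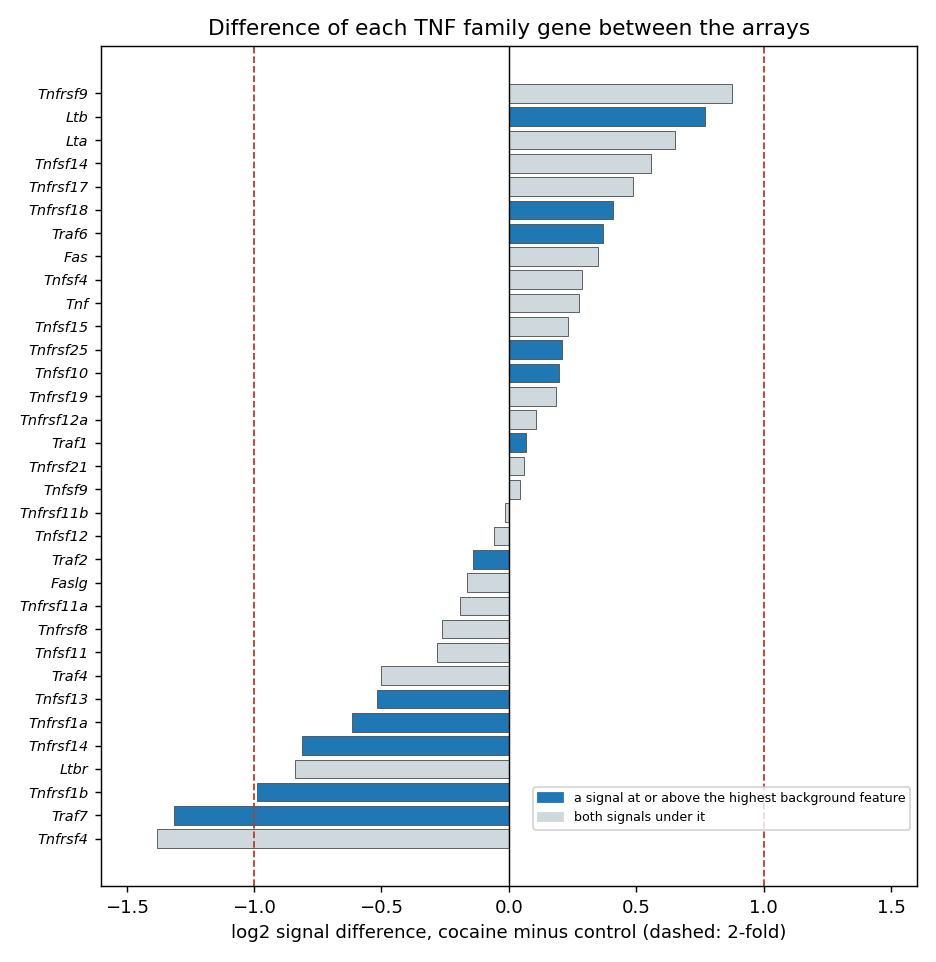
Difference in log2 signal, cocaine minus control, of each of the 33 genes (bars, ordered from highest to lowest), with 2-fold marked by dashed lines. Dark bars are the 12 genes with a signal beyond the background features. Traf7 (-1.32) is the dark bar that passes 2-fold, Tnfrsf1b (-0.99) ends just short of it, and no bar passes 2-fold on the right.

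Among the TRAFs, the largest difference was that of Traf7, an adaptor with a ubiquitin ligase RING domain and WD40 repeats that takes part in MAP kinase signaling. Its signal was 10.39 after cocaine, against 11.71 in the control spleen, a difference of -1.32 or 2.49-fold lower. This placed Traf7 460th from the lowest among the 7196 genes with at least 1 signal beyond background. Traf6, the adaptor that also serves the interleukin-1 and Toll-like receptors, had a signal of 11.36 after cocaine, against 10.99 in the control spleen, which is 1.29-fold higher. Traf1 and Traf2, which form a complex on TNF receptors, stayed close to their control values. Traf1 had 9.53 after cocaine, against 9.46 in the control spleen, and Traf2 had 9.26 after cocaine, against 9.40 in the control spleen. Traf4, an adaptor known from epithelial development, had both signals within background (6.17 after cocaine, against 6.67 in the control spleen). Traf3 and Traf5 were not analysed here. Of the 5 TRAFs, 2 thus had a difference above 0 and 3 below, with a median of -0.14. Traf7 therefore stood apart from the other 4 by the size of its difference. Under the alternatives tried, its difference stayed between -1.35 and -1.22.

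Since NF-kB binds the promoters of several genes of this family, the sequence around the start of each gene was searched for the kB motif, its binding consensus of 10 bases. The motif was read as GGG, A or G, any 2 bases, C or T at 2 places, then CC. Either strand was searched, with overlapping matches allowed. Promoter windows from 250 bases before to 50 bases after the gene start in RefSeq (build GRCr8) were found for 25 of the 33 genes. A match lay in 6 of these 25 (24%), against 7.51% of the 33469 windows of the whole table. Those windows were not restricted to genes read on the array, so the 2 shares come from unlike sets. The 6 genes were Fas, Lta, Ltb, Tnfrsf8, Tnfsf14 and Traf7. In Fas, Lta, Tnfrsf8 and Tnfsf14 the letters match on both strands at the same place. The windows of Traf7, Ltb and Lta are shown because Traf7 and Ltb had the lowest and the highest difference among the 12 genes beyond background, and because Lta lies beside Ltb. Capitals mark the motif, and each window reads 5′ to 3′ along its gene, for Traf7 at chr10:14056645-14056944 (minus strand), for Ltb at chr20:3634005-3634304 (minus strand) and for Lta at chr20:3623277-3623576 (plus strand).
Traf7: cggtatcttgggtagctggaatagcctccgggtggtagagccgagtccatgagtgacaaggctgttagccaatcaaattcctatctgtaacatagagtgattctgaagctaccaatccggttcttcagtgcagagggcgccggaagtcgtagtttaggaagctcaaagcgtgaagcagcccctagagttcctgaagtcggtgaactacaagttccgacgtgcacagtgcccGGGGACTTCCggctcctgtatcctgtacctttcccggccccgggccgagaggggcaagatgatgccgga
Ltb: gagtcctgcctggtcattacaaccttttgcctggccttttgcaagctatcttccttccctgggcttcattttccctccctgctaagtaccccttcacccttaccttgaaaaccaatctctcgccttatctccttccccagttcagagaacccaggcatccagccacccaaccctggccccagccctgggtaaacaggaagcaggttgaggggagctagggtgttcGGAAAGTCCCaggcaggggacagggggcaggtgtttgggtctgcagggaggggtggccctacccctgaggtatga
Lta: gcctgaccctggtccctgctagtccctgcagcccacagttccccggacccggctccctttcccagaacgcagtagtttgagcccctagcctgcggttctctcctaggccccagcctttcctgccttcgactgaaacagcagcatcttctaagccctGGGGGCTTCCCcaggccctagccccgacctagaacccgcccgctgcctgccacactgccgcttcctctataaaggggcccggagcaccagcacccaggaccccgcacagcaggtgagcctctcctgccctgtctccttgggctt
Counted from the start used for each window, the match ends 10 bases before that of Traf7, 16 bases before that of Ltb, where it reads on the opposite strand, and 84 bases before that of Lta, where 2 overlapping matches share 9 bases. A gene with such a match was lower on the cocaine array in the case of Traf7 (-1.32) and higher in the case of Ltb (0.77). Of the 6 genes with a match, 4 had a positive difference and 2 a negative one. Fas, Lta, Tnfrsf8 and Tnfsf14 had both signals within background. Only the directions of Traf7 and Ltb rest on signals beyond background, and these were opposite. A match describes the letters of the window and shows no binding.

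The ligands TNF, Lta and Ltb had positive differences, and the receptors that bind them had negative ones. Ltb encodes lymphotoxin beta, the membrane partner of lymphotoxin alpha. It had a signal of 12.48 after cocaine, against 11.71 in the control spleen, 1.71-fold higher, and was 459th from the highest of the 7196 genes with at least 1 signal beyond background. The signal of Lta was 6.22 after cocaine, against 5.56 in the control spleen (0.65), and that of TNF was 6.66 after cocaine, against 6.38 in the control spleen (0.28), all within background. The direction of Ltb is therefore the only one of the 3 that rests on signals beyond background. On the side of the receptors, Tnfrsf1b (TNF receptor 2, found mainly on leukocytes and endothelium) had 10.34 after cocaine, against 11.33 in the control spleen, 1.99-fold lower. Tnfrsf1a (TNF receptor 1, the broadly expressed receptor with a death domain) had 8.52 after cocaine, against 9.14 in the control spleen, 1.53-fold lower. Tnfrsf14 (HVEM), which binds the ligand Tnfsf14 (LIGHT) and the inhibitory lymphocyte receptor BTLA, had 12.03 after cocaine, against 12.85 in the control spleen, 1.76-fold lower. These 3 receptors all had signals beyond background on both arrays. Ltbr, the lymphotoxin beta receptor of stromal and myeloid cells, was also lower (5.89 after cocaine, against 6.73 in the control spleen), but within background. Tnfsf14 itself had 6.38 after cocaine, against 5.82 in the control spleen, again within background.

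The directions of the 4 genes beyond background were the same under every alternative tried, where Ltb lay between 0.72 and 0.86, Tnfrsf1b between -1.02 and -0.90, Tnfrsf14 between -0.88 and -0.72 and Tnfrsf1a between -0.64 and -0.50. Tnfrsf1b passed 2-fold with the loess correction alone (-1.02). When 15 textbook pairs of a ligand and a receptor of the family were set side by side, the 2 differences had opposite signs in 11. The ligand was higher and the receptor lower in 8 of these, and the ligand was lower and the receptor higher in 3. Pairs share genes (TNF, Lta, Tnfrsf1a, Tnfrsf1b, Ltbr, Tnfsf11 and Tnfsf14 each stand in 2), each of the 15 holds at least 1 gene within background, and the pairs were chosen after the values were seen, so the count is a description alone. It was 12 under the loess correction or quantile normalization. Another 2 pairs of the family that go by other symbols, Cd40lg with Cd40 (0.47 and 0.02) and Cd70 with Cd27 (-0.43 and -0.26), each had differences of the same sign.

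**Figure D3:**
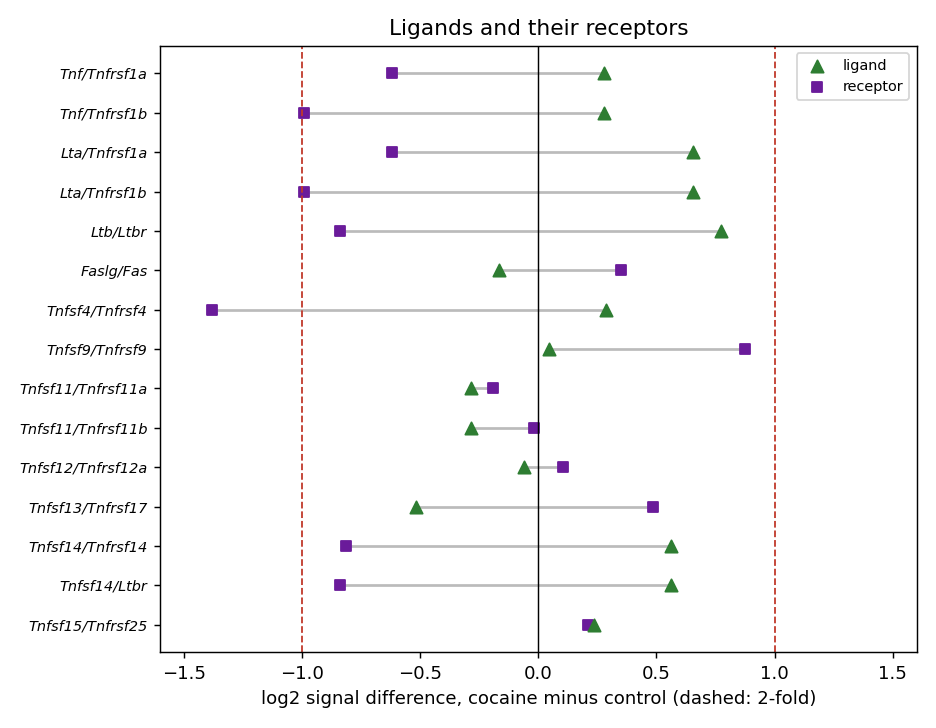
Difference in log2 signal, cocaine minus control, of the ligand (triangle) and the receptor (square) in 15 ligand and receptor pairs, 1 pair per row, with 2-fold marked by dashed lines. In the rows of TNF, Lta, Ltb and Tnfsf14 the triangle lies right of 0 and the square left of it, as for Ltb (0.77) and Ltbr (-0.84).

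In the RefSeq annotation several of these genes are neighbors. Lta, Tnf and Ltb follow each other on chromosome 20 with no protein-coding gene between them, and all 3 had positive differences. Ltbr and Tnfrsf1a lie on chromosome 4 with 1 protein-coding gene between them, and both had negative differences. The direct neighbors Tnfrsf4 and Tnfrsf18 on chromosome 5 went opposite ways (-1.38 and 0.41). Tnfrsf1b and Tnfrsf8 on chromosome 5 were both negative (-0.99 and -0.26), as were Tnfsf13 and Tnfsf12 on chromosome 10 (-0.52 and -0.06, the second of which turned to 0.04 with 75th percentile centring). Tnfsf4 and Faslg on chromosome 13, with 1 gene between them, had opposite signs (0.29 and -0.17), and Tnfsf9 and Tnfsf14 on chromosome 9, with 2 genes between them, were both positive (0.04 and 0.56). Neighbors thus shared a sign in some of these groups but not in all. Every pair of neighbors named here holds at least 1 gene with both signals within background. Their shared or opposite signs therefore cannot be told from background. The transcript clusters of Ltb and Tnf bear IDs that mark them as not placed on the genome of the array design.

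The B cell survival receptors were represented by Tnfrsf17 alone. Tnfrsf17 encodes BCMA, which is found on plasma cells and binds APRIL with high affinity. Its signal was 5.87 after cocaine, against 5.39 in the control spleen, a difference of 0.49, with both signals within background. Tnfrsf13b (TACI), Tnfrsf13c (BAFF-R) and the ligand Tnfsf13b (BAFF) were not analysed here. The ligand of Tnfrsf17, Tnfsf13 (APRIL), had signals beyond background, 11.18 after cocaine, against 11.69 in the control spleen, which is 1.43-fold lower. Ligand and receptor thus differed in opposite directions, neither of them past 1.5-fold. Markers of the cells that carry such receptors are given beside these values. Of 9 B cell genes, 5 were higher and 4 lower. The log2 of their signals summed on the linear scale was 17.44 after cocaine, against 16.88 in the control spleen. Such a sum is set mostly by the strongest probes, here those of Cr2 (0.88) and Cd79b (0.63), which were both among the higher genes. The largest difference of the list was that of Fcer2 (-0.93), and Spib was lower as well (-0.72), both beyond background. Of 7 plasma cell genes, the 4 with signals beyond background were all higher, Txndc5 by 1.18, Mzb1 by 1.04, Xbp1 by 0.97 and Irf4 by 0.78 on the log2 scale. The log2 of the summed signals of all 7 was 13.95 after cocaine, against 12.91 in the control spleen. The other 3, Derl3 (-0.63), Prdm1 (-0.0004) and the surface marker Sdc1 (-0.12), had both signals within background, and none of them was higher. The part of these cells in the values of Tnfrsf17 and Tnfsf13 was not tested. In whole spleen RNA, fewer cells of a type and less RNA per cell cannot be told apart.

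Of the death ligands and death domain receptors, Tnfsf10, Tnfrsf25 and Tnfrsf1a had signals beyond background, and Tnfrsf1a alone passed 1.5-fold (1.53-fold lower). Tnfsf10 (TRAIL) was the death ligand with signals beyond background, 8.67 after cocaine, against 8.47 in the control spleen, which is 1.15-fold higher. Fas had 7.21 after cocaine, against 6.86 in the control spleen, and its ligand Faslg had 6.46 after cocaine, against 6.62 in the control spleen, all within background. Tnfsf15 (TL1A, 0.23), Tnfsf12 (TWEAK, -0.06) and Tnfrsf21 (DR6, 0.06) were likewise within background. Tnfrsf25 (DR3), the death domain receptor of T cells that binds Tnfsf15, lay just beyond background with 8.0 after cocaine, against 7.79 in the control spleen, 1.16-fold higher. Of the 4 death domain receptors, only Tnfrsf1a was thus lower on the cocaine array. Its difference of -0.62 was larger in size than those of the other 3, which reached at most 0.35.

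The costimulatory receptors of T cells went in both directions. Tnfrsf18 (GITR), a receptor of regulatory and activated T cells, was the member of this group with signals beyond background, 9.52 after cocaine, against 9.11 in the control spleen, which is 1.33-fold higher. Tnfrsf4 (OX40), which appears on activated T cells, had 5.52 after cocaine, against 6.90 in the control spleen. This difference of -1.38 was the lowest of the 33 genes, but with both signals within background it is not interpreted. The same holds for Tnfrsf9 (4-1BB), with 6.01 after cocaine, against 5.13 in the control spleen, the highest difference of the family (0.88). Tnfrsf8 (CD30, -0.26) was lower and also within background. Their ligands Tnfsf4 (0.29) and Tnfsf9 (0.04) had small positive differences within background, and that of Tnfsf9 turned negative under quantile normalization (-0.02) and loess correction (-0.03). Of 10 T cell markers, 7 were higher and 3 lower on the cocaine array. The log2 of their summed signals was 13.97 after cocaine, against 13.94 in the control spleen. Cd3d had the largest difference of these markers (0.96). The 3 lower ones were Cd4 (-0.69), Cd5 (-0.27) and Trat1 (-0.23, with its cocaine signal within background).

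Genes of the family that act in bone and stroma had signals within background on both arrays. The osteoclast ligand Tnfsf11 (RANKL) had 3.86 after cocaine, against 4.15 in the control spleen. Its receptor Tnfrsf11a (RANK, -0.19) was slightly lower, and its soluble decoy Tnfrsf11b (osteoprotegerin) had a difference of -0.02 that became 0.08 with 75th percentile centring. Tnfrsf12a, the receptor of TWEAK (0.11), and Tnfrsf19 (0.19) were slightly higher. None of these 5 genes reached 1.5-fold.

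The genes that work with the family were examined in 5 lists, in which 50 genes were measured. Of these, 2 were at least 2-fold lower (4.0%, against 4.97% of all genes) and none was at least 2-fold higher (against 2.28%). Both lower genes were among the 43 with at least 1 signal beyond background (4.65%). Of the 7196 genes with such a signal, 8.87% were lower and 2.65% were higher. Traf3ip1, which binds TRAF3 and is a subunit of the transport complex of cilia, had a signal of 7.66 after cocaine, against 9.51 in the control spleen. Its cocaine signal was within background, and raising it to the highest background feature leaves it at least 3.37-fold lower. Relt, a receptor of the family under another name, had 7.83 after cocaine, against 9.03 in the control spleen, 2.30-fold lower. Other pairs of the family under other names showed smaller differences. Cd40, the receptor through which T cells help B cells, had 8.89 after cocaine, against 8.88 in the control spleen, and Cd27 had 9.59 after cocaine, against 9.85 in the control spleen. Their ligands were Cd40lg, with 7.99 after cocaine, against 7.53 (within background) in the control spleen, and Cd70, with both signals within background.

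Of the 10 adaptors and enzymes of the receptor complex, 9 had positive differences (90%), with a median of 0.24. Among all genes 53.2% were positive, and among those with at least 1 signal beyond background 50.0% were. Ripk3, the kinase of necroptosis, was 1.87-fold higher (10.88 after cocaine, against 9.97 in the control spleen), and Casp8, the protease that starts death receptor apoptosis, was 1.47-fold higher (13.29 after cocaine, against 12.74 in the control spleen). The kinase Ripk1 (0.02) and the Casp8 inhibitor Cflar (0.07) were near 0, and Bid, a substrate of Casp8, was the exception (-0.24). With the loess correction 8 of the 10 were positive, and Ripk3 passed 2-fold with quantile normalization and with centring on the 75th percentile. Of 12 kinases towards NF-kB and MAP kinases, 5 were higher and 7 lower. The largest differences among them were those of the MAP kinase Mapk9 (JNK2, -0.84) and of Map2k4, a kinase that activates it (0.61). Their median was -0.08 and its sign turned with centring on the 75th percentile (0.01). Of 7 subunits and inhibitors of NF-kB, none was past 1.5-fold in either direction, which 11.6% of all genes were upward and 11.7% downward. At least 1 signal lay beyond background for 6 of the 7, and among all 7196 such genes 12.0% were upward and 16.8% downward. Nfkb1 was 1.31-fold higher (12.36 after cocaine, against 11.97 in the control spleen), and the inhibitor gene Nfkbia, itself induced by NF-kB, was 1.12-fold higher (13.47 after cocaine, against 13.31 in the control spleen). Among 14 partners of TRAFs and ubiquitin enzymes, Tbk1 (0.51) was higher and Ube2v1 (-0.74) lower, and Tank, which binds TRAFs and Tbk1, had 13.07 after cocaine, against 13.05 in the control spleen.

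**Figure D4:**
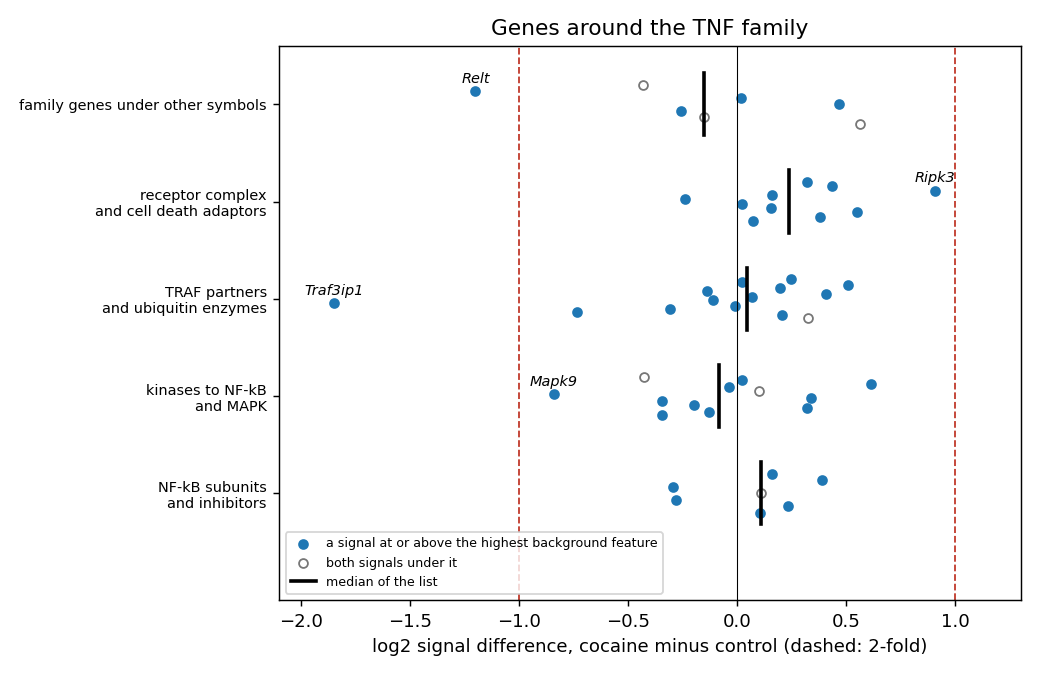
Difference in log2 signal, cocaine minus control, of the 50 measured genes in 5 lists around the TNF family (points, spread vertically for clarity), with the median of each list as a bar and 2-fold as dashed lines. Open points had both signals within background. Traf3ip1 (-1.85) and Relt (-1.20) lie beyond 2-fold on the left. In the list of the receptor complex 9 of 10 points lie right of 0, where 53.2% of all genes lie.

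Markers of several spleen cell types differed between the arrays. All 6 markers of erythroid cells were lower after cocaine, with differences between -6.64 and -4.49 for the 4 with both signals beyond background. The cocaine signals of Epb42 and Rhag were within background, which leaves them at least 73.7-fold and 46.3-fold lower. Over the 6 markers the log2 of the summed signals was 13.62 after cocaine, against 19.53 in the control spleen. Traf7, Traf3ip1 and Relt were lower too, but all genes here come from the same 2 arrays, and a link to erythroid cells was not tested. Of 6 neutrophil markers, 5 were lower, among them S100a9 (-1.39) and S100a8 (-1.12), with sums of 12.63 after cocaine, against 13.89 in the control spleen. Elane, Ltf, Camp and Csf3r had both signals within background. Of 9 macrophage markers, 7 were lower, with a median of -0.27 and sums of 16.17 after cocaine, against 16.24 in the control spleen. Tnfrsf1b, Tnfrsf1a and Tnfrsf14 were lower too, while lymphocyte markers went both ways (B cells 5 higher and 4 lower, T cells 7 higher and 3 lower). A link of these receptors to any cell type was not tested. Of 7 stromal and smooth muscle markers, 4 were higher, the chemokines Cxcl13 (0.84) and Ccl19 (1.36) of the white pulp and the smooth muscle genes Acta2 (1.03) and Tagln (1.21), while Pdgfrb (-0.87), Col1a1 (-0.22) and Col3a1 (-0.15) were lower. Of 7 markers of NK and cytotoxic cells, which use Faslg and TRAIL, 6 were higher, with a median of 0.55 and sums of 13.70 after cocaine, against 13.54 in the control spleen. That median is the difference of Ncr1, which like Gzmb had both signals within background. Beyond background, Gzma (1.65), Prf1 (0.68), Klrd1 (0.59) and Nkg7 (0.04) were higher and Klrk1 (-0.07) was lower. The medians were 0.18 for 4 dendritic cell markers, 0.09 for 6 endothelial markers and -0.54 for 3 platelet markers. Of the dendritic cell markers 2 were higher and 2 lower, among them Xcr1 (-1.09, with its cocaine signal within background). Of the endothelial markers 5 were higher, among them Emcn (1.16), and 1 lower (Vwf, -0.91, within background). The platelet median is the difference of Gp9, which had both signals within background. Ppbp and Pf4 had signals beyond background and differed by -2.13 (4.37-fold lower) and -0.19. All 7 markers of pancreas and liver, tissues that could be carried over at dissection, had signals within background on both arrays. The part of these cells in the differences of the family was not tested.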

How the data were processed

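Total spleen RNA of cocaine-administered and control rats, 1 sample each, was measured on Clariom S rat arrays. Per the labels and the study's methods, TRIzol and RNeasy columns served to isolate RNA, with DNase I digestion. The authors deposited 1 log2 signal for each feature. The sources used here do not give how background was corrected or how the arrays were normalized. No further normalization was applied, and 0 columns were left out.

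Control features (1646 of 24834) were set aside, and of 23188 transcript clusters the 15049 with 1 symbol stood for 15037 genes. All 33 family genes were matched to RefSeq by Entrez identifier under the same symbol. Where a symbol had several clusters the one with the highest mean signal was used, which concerned 0 family genes. The log2 difference between the arrays was computed and counted at 2-fold and 1.5-fold. With 1 array per group no test was possible, and precision is limited by the number of arrays. The genes, roles, lists and pairs were chosen with earlier results of these data known. Genes were named by a rule: members by role, with both signals for B cell survival genes, TRAFs and members past 1.5-fold, and list genes past 2-fold or among the largest differences. The other list genes that are named were chosen after their values were seen. Alternatives were 4 scalings, a filter, a floor, the mean over clusters and a 1.5-fold threshold. The loess span was 0.3. Differences and scalings were tested on simulated data. Python 3.11.15, numpy 2.4.6, pandas 2.3.3, statsmodels 0.14.6 and matplotlib 3.10.9 were used.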

Additional observations from a re-analysis of the deposited data

How the results depend on the processing

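Of 213 recomputed differences of single genes, 211 stayed on their side of 2-fold. Tnfrsf1b passed it with the loess correction (-1.02), and Tnfrsf4 fell short with the floor at the highest background feature (0). Many of the recomputed values were fixed in advance. Each family gene has 1 cluster, so the mean over clusters changes none, and the filter changes no value. The floor sets the 21 genes within background to 0 and leaves the other 12 unchanged. The count of 211 is therefore no measure of robustness. The number of genes at least 2-fold lower, 2 as reported, was 1 with that floor, 1 among genes not below the array median, and 6 at 1.5-fold (against 11.7% of all genes), where 3 genes were higher (against 11.6% of all genes). It was 3 with the loess correction. The median of the family (0.06) was 0.15 with 75th percentile centring, 0.0196 with quantile normalization, 0.0134 with the loess correction and 0 with the floor. The difference of Tnfrsf17, 0.49 as reported, was 0.58 with 75th percentile centring, 0.48 with median centring, 0.40 with quantile normalization, 0.395 with the loess correction and 0 with the floor, which sets all signals under it equal. With the filter at the median, Tnfrsf17 was left out and has no value. Differences of Tnfrsf11b, Tnfsf12 and Tnfsf9, all within 0.06 of 0, changed sign, the first 2 with 75th percentile centring and Tnfsf9 with both quantile normalization and the loess correction. The median of all genes moved by at most 0.09 under the scalings. No paired analysis was possible because each group has 1 sample, and for the same reason no replicate could be left out. Signal over background limits 21 of the 33 genes.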
